A study of Mus musculus with 6 samples.

Results

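S100a8 and S100a9, the stefin A genes Stfa1, Stfa2, Stfa2l1 and Stfa3, and Asprv1 are 7 mouse genes whose transcripts are abundant in neutrophils, and their levels were measured here in liver metastases of mammary carcinoma cells. They were found by symbol in a table of gene counts that held 24167 genes. A row was found for 6 of the 7, all of which passed the filter on low counts, and Stfa1 was not analysed here. The symbols were chosen from the fold changes between the study's groups, with the values of these same libraries known, so the levels and folds of these genes are given as a description with no test.

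The metastases came from female BALB/c mice aged 6 to 8 weeks that received 500000 4T1 cells by hydrodynamic injection into the tail vein. 4T1 is a mouse triple-negative mammary carcinoma line, and the nodules were dissected from the liver under a microscope after 10 days. In 3 libraries the injected cells carried a scrambled hairpin (shSCR), and in 3 they carried a hairpin against Zdhhc17 (shZdhhc17), which encodes a palmitoyltransferase. Both cell populations were made with the same lentiviral pLKO.1 vector and selected with puromycin, and the host's own cells, neutrophils included, carried neither hairpin. The labels do not state how many hairpin sequences or cell clones stand behind each group, nor outright that each library is a separate animal. The RNA is that of whole dissected tissue, in which more cells of a type and more RNA per cell cannot be told apart.

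S100A8 and S100A9 are small calcium-binding proteins that pair as calprotectin, one of the main proteins of the neutrophil cytosol. Calprotectin binds zinc and manganese, and once released it acts as an alarm signal through receptors such as TLR4. Stefins are cytosolic inhibitors of cysteine cathepsins, and the mouse carries a cluster of related stefin A genes on chromosome 16. Asprv1 encodes an aspartic protease best known from the outer epidermis, and it is also expressed by neutrophils.

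Stfa2 and Stfa2l1 are near-identical copies, which bears on how far their rows can be separated, and the other stefin A genes are more distant. The coding sequences of Stfa2 and Stfa2l1 matched at 298 of 309 bases, or 96.4%, while Stfa3 matched Stfa2 at 80.9% and Stfa2l1 at 81.6%. The annotated coding sequence of Stfa1 is longer, at 384 against 309 bases, and matched those of the other 3 at 56.2% to 60.7% of alignment columns. Columns with a gap count as differences there, so the unequal lengths lower these values and they do not measure base differences alone. The first 120 coding bases of each are shown because they carry 7 of the 11 differences between Stfa2 and Stfa2l1. Capitals mark bases that differ from Stfa2, in transcripts of the GENCODE vM21 annotation of the C57BL/6J reference.
Stfa2: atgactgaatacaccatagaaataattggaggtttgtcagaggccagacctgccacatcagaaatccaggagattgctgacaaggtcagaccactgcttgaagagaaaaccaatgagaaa
Stfa2l1: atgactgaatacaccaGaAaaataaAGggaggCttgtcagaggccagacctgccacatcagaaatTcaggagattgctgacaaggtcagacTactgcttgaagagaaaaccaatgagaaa
Stfa3: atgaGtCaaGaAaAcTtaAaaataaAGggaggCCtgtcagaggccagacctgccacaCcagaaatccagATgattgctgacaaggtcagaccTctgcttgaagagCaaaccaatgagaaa
Of all 50-base windows of the annotated transcripts, 84.1% in Stfa2, 75.4% in Stfa2l1 and 100% in Stfa3 occurred in no other gene. At 100 bases every window of these 3 genes was found in that gene alone. S100a8, S100a9 and Asprv1 had no shared window at 50 bases. Neither the read length nor the treatment of reads with several matches was found in the labels, so the split of reads between Stfa2 and Stfa2l1 is uncertain, and the stefin A rows are also given as a sum.

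The stefin A genes also resemble each other upstream of the coding sequence. Promoters were read from RefSeq on GRCm38.p6 for all 7 symbols, and the 150 bases before the start are printed for the 3 measured stefin A genes and S100a8, because these 4 of the 6 measured genes hold the ETS-type motif that is shown in capitals. GRCm38.p6 is an older build than the GRCm39 of the counts, and the coordinates are on the older one.
S100a8, chr3:90668921-90669070, plus strand: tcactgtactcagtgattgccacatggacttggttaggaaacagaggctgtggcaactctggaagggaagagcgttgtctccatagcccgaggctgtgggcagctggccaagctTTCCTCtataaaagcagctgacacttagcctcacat
Stfa2, chr16:36408364-36408513, minus strand: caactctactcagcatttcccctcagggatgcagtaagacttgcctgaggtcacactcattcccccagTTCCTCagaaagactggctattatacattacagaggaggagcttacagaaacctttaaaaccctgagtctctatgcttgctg
Stfa2l1, chr16:36156661-36156810, plus strand: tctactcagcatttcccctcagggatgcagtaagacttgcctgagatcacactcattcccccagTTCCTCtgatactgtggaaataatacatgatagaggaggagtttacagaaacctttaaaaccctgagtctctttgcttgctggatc
Stfa3, chr16:36455393-36455542, minus strand: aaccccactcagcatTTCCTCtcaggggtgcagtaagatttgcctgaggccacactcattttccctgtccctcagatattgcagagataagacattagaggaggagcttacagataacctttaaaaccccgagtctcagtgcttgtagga
The promoters of Stfa2 and Stfa2l1 were identical at 86.4% of aligned bases, and Stfa3 matched them at 79.7% and 79.9%. S100a8 and S100a9, whose proteins form 1 complex, matched at 42.8% in theirs. Pairs from different families gave similar values by this alignment, from 37.4% for Stfa2l1 and S100a8 to 48.1% for Stfa1 and S100a9. In the 250 bases before the start, GAGGAA on either strand (TTCCTC as printed) was present in S100a8, Stfa2, Stfa2l1 and Stfa3, against 23.3% of all 32851 windows of that length. The 3 stefin A promoters resemble each other, so their matches are not independent, and no enrichment is read from them. The C/EBP-type motif TTNNGCAA was present in 1 of the 6, S100a9, against 9.56% of windows, and the STAT-type motif TTCNNNGAA in 0 of the 6, against 7.02%. These are matches of letters, and none of the 3 motifs overlapped another in the stretches printed.

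Library totals ran from 15832837 to 19186615 counts, with 21728 to 22269 genes detected. Levels are given in counts per 1000000 (CPM) of the library size scaled by the trimmed mean of M-values (TMM), a factor that aligns the bulk of genes between libraries. Zdhhc17 itself stood at 33.7, 32.4 and 34.2 CPM in the shSCR libraries and 25.9, 27.8 and 26.0 CPM in the shZdhhc17 libraries, in RNA that mixes injected and host cells. Summed hepatocyte markers were 24410 CPM in shSCR replicate 3 and 46840 to 69730 CPM in the other libraries. Of 15567 genes tested, 0 passed an adjusted p of 0.05 in edgeR's quasi-likelihood test (0% called), 1780 had an unadjusted p under 0.05 (11.4%), limma voom called 0 and DESeq2 called 214 (1.37%). For genes whose groups did not overlap, the background was 1164 genes higher in shZdhhc17 (7.48%) and 1497 lower (9.62%).

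Calprotectin transcripts made up between 0.00439% and 0.0204% of counts in the shSCR libraries and between 0.0235% and 0.0489% in the shZdhhc17 libraries. S100a8 (ENSMUSG00000056054.10) measured 22.7, 66.8 and 11.4 CPM in shSCR replicates 1 to 3. The shZdhhc17 libraries held 159.5, 97.3 and 202.7 CPM of S100a8. The lowest silenced library was 1.46 times the highest control, so the groups did not overlap, and the control library nearest to them was replicate 2. The means were 33.7 ± 29.3 CPM (SD, n = 3) and 153.2 ± 53.0 CPM (SD, n = 3), a log2 fold change of 2.18 ± 0.62 (SE), or 4.55-fold.

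S100a9 (ENSMUSG00000056071.13), the partner subunit, measured 58.2, 123.4 and 28.1 CPM in the shSCR libraries. In the shZdhhc17 libraries it measured 258.1, 158.9 and 314.8 CPM. The order of the libraries was the same as for S100a8, with control replicate 2 the highest control and silenced replicate 2 the lowest silenced library. The means of S100a9 were 69.9 ± 48.7 and 243.9 ± 78.9 CPM (SD, n = 3 each), and its log2 fold change was 1.80 ± 0.52 (SE), or 3.49-fold. The controls spread more widely than the silenced libraries: the highest over the lowest was 4.40 for S100a9 and 5.84 for S100a8 in shSCR, against 1.98 and 2.08 in shZdhhc17.

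Of the stefin A genes, Stfa2 (ENSMUSG00000022902.9) measured 0.545, 1.88 and 0.502 CPM in the shSCR libraries, from 10, 36 and 9 counts. It measured 11.5, 5.67 and 8.24 CPM in the shZdhhc17 libraries, from 183, 95 and 125 counts. The groups lay well apart, the lowest silenced library holding more counts than the 3 controls summed. The log2 fold change of Stfa2 was 3.10 ± 0.54 (SE), or 8.56-fold, from means of 0.977 ± 0.785 and 8.48 ± 2.93 CPM (SD, n = 3 each).

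Stfa2l1 (ENSMUSG00000059657.6), the closest copy of Stfa2, measured 2.24, 4.92 and 1.51 CPM in the shSCR libraries and 13.3, 5.02 and 9.10 CPM in the shZdhhc17 libraries. Its groups touched: shZdhhc17 replicate 2 was 1.02 times shSCR replicate 2. With CPM on library totals alone the order of these 2 libraries turned, at 4.61 CPM in the silenced and 5.27 CPM in the control library, so the groups overlapped. The log2 fold change of Stfa2l1 was 1.65 ± 0.51 (SE), or 3.15-fold, from means of 2.89 ± 1.80 and 9.13 ± 4.13 CPM (SD, n = 3 each).

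Stfa3 (ENSMUSG00000054905.3), the most divergent of the 3, had 4, 13 and 1 counts in the shSCR libraries and 64, 49 and 45 counts in the shZdhhc17 libraries. In CPM this was 0.218, 0.680 and 0.0558 against 4.03, 2.93 and 2.97. The silenced libraries were close to each other, while the control level rested on few counts and is imprecise. Its log2 fold change was 3.33 ± 0.61 (SE), or 10.1-fold, and the means were 0.318 ± 0.324 and 3.31 ± 0.623 CPM (SD, n = 3 each). Summed over the 3 rows, which takes out the split of reads among these 3 genes but not reads lost or given to other genes that share windows with them (Gm49652 and Gm4758), stefin A stood at 3.00, 7.48 and 2.07 CPM in shSCR and 28.8, 13.6 and 20.3 CPM in shZdhhc17, a ratio of means of 5.00.

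Asprv1 (ENSMUSG00000033508.9) measured 3.38, 5.23 and 2.01 CPM in the shSCR libraries. It measured 7.93, 6.45 and 9.56 CPM in the shZdhhc17 libraries. The groups did not overlap, and the ranking of libraries within each group matched that of S100a8 and S100a9. Its log2 fold change of 1.17 ± 0.35 (SE), or 2.25-fold, was the smallest of the 6.

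**Figure D1:**
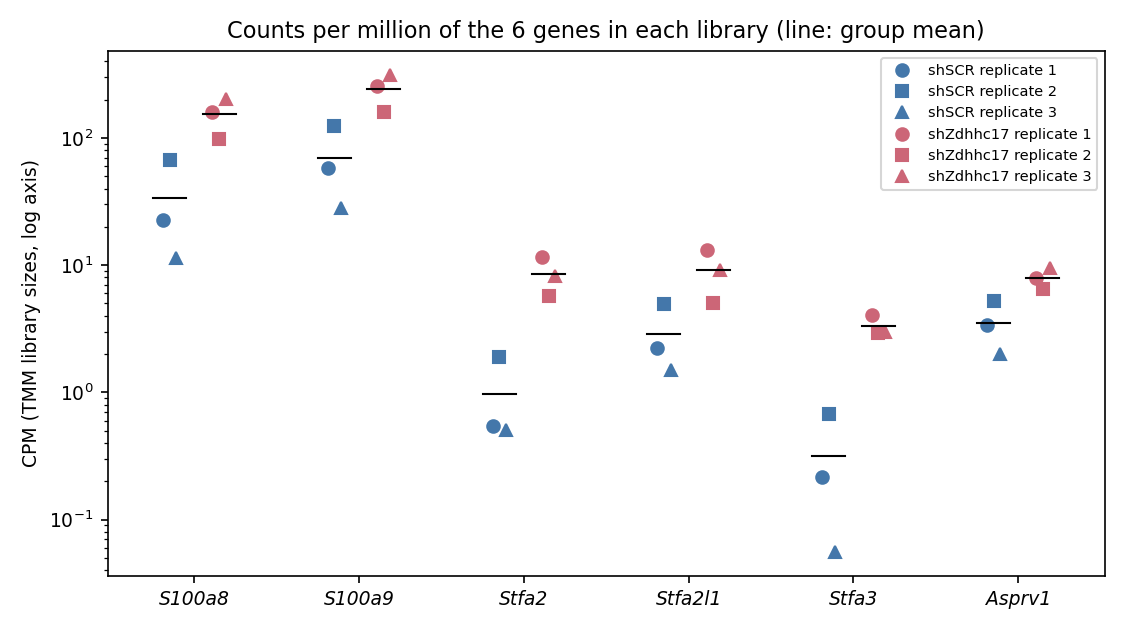
Level of each of the 6 measured genes in every library, in CPM on a log axis, with shSCR and shZdhhc17 libraries side by side, points for libraries and lines for group means. The shZdhhc17 points lie above the shSCR points for all 6 genes, with a ratio of 1.02 between the nearest points for Stfa2l1 and 1.46 for S100a8.

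All 6 measured genes were higher in every shZdhhc17 library than in any shSCR library, a pattern found in 7.48% of all genes tested, and 5 of 6 on library totals alone, where the share over all genes was 4.07%. The genes were chosen on this contrast, so nothing is read from these counts. Their median log2 fold change was 1.99, or 3.98-fold, with a range of 1.17 to 3.33, beside a median of 0.0017 over all genes tested. Leaving out shSCR replicate 3, the lowest control for all 6 genes, lowered that median to 1.60, or 3.025-fold. Leaving out shSCR replicate 2, the highest control for all 6 genes, raised that median to 2.83, or 7.11-fold. Without shSCR replicate 2 the log2 fold changes were 3.16 for S100a8, 2.50 for S100a9, 4.00 for Stfa2, 2.28 for Stfa2l1, 4.51 for Stfa3 and 1.56 for Asprv1. The authors' deposited table gave log2 fold changes of 2.19 for S100a8, 1.81 for S100a9, 3.12 for Stfa2, 1.67 for Stfa2l1, 3.37 for Stfa3 and 1.18 for Asprv1.

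**Figure D2:**
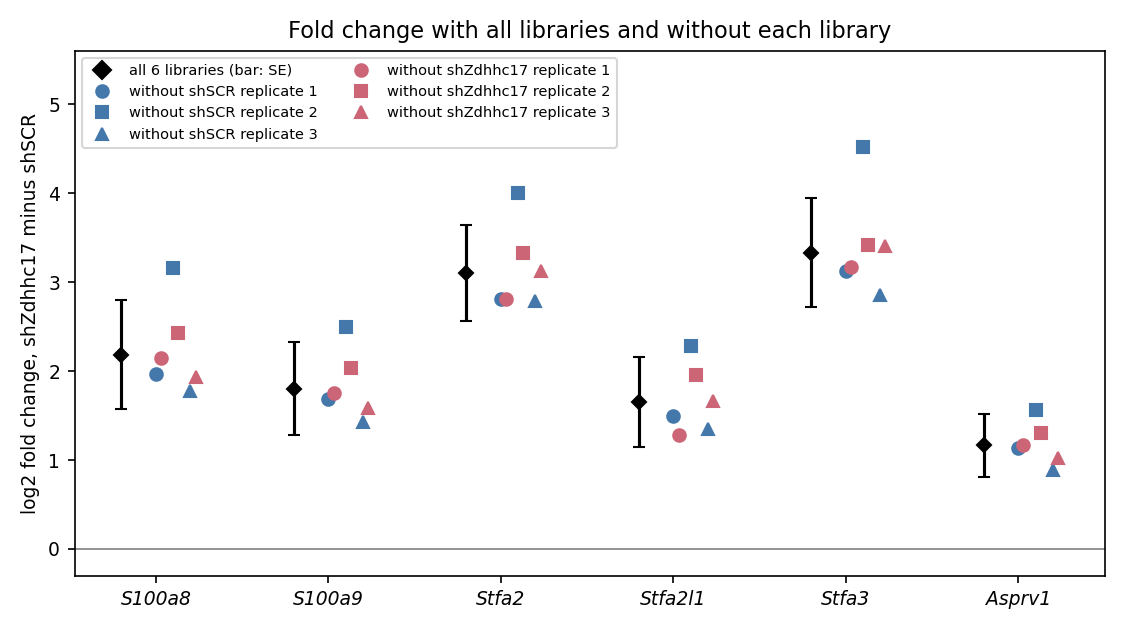
Log2 fold change (shZdhhc17 minus shSCR) of the 6 genes from all libraries and with each of the 6 libraries left out in turn. Every value is above 0, from 0.88 for Asprv1 to 4.51 for Stfa3, and the highest value of each gene is the one without shSCR replicate 2.

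Per kilobase of coding transcript, which allows levels to be compared between genes, S100a9 was the most abundant of the 6 in both groups, at 136.5 ± 95.1 CPM per kb in shSCR and 476.4 ± 154.1 CPM per kb in shZdhhc17 (SD, n = 3 each). S100a8 followed at 69.3 ± 60.2 and 315.2 ± 109.1 CPM per kb, below S100a9 in each of the 6 libraries, though in shSCR the group means lay within their spread. The stefin A genes lay an order of magnitude or more lower. In shZdhhc17, Stfa2l1 at 21.8 ± 9.85 and Stfa2 at 18.0 ± 6.21 CPM per kb did not differ beyond their spread, followed by Stfa3 at 8.02 ± 1.51 and Asprv1 at 5.16 ± 1.01. In shSCR the order below calprotectin was Stfa2l1 at 6.89 ± 4.29, Asprv1 at 2.29 ± 1.05, Stfa2 at 2.07 ± 1.67 and Stfa3 at 0.772 ± 0.786 CPM per kb, and Asprv1 and Stfa2 did not differ beyond their spread, while Stfa3 was the lowest in each of the 3 libraries.

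Ratios between the genes within a library do not depend on how libraries are scaled. S100a8 counts were 39.0%, 54.2% and 40.8% of S100a9 counts in the shSCR libraries and 61.8%, 61.2% and 64.4% in the shZdhhc17 libraries. S100a8 counts were thus nearer to S100a9 counts in the silenced libraries, without overlap, and shSCR replicate 2 was the nearest control. The log2 fold changes of the 2 subunits, 2.18 ± 0.62 and 1.80 ± 0.52 (SE), lay within their SE of each other. Both were measured in the same libraries and moved together, so these SEs are not the error of their difference, which was not computed. The genes were chosen on this contrast, so the ratios are given as a description with no test.

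Stfa2 counts were 24.4%, 38.3% and 33.3% of Stfa2l1 counts in shSCR and 86.7%, 113.1% and 90.6% in shZdhhc17. Stfa3 counts were 9.76%, 13.8% and 3.70% of Stfa2l1 counts in shSCR and 30.3%, 58.3% and 32.6% in shZdhhc17. Thus Stfa2l1, the predominant copy in shSCR, was close to Stfa2 in shZdhhc17, and the share of Stfa3 was higher too. How reads shared by Stfa2 and Stfa2l1 were assigned bears on the first of these ratios. The second rests on 4, 13 and 1 counts of Stfa3 in the shSCR libraries.

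Asprv1 went the other way, at 5.81%, 4.24% and 7.16% of S100a9 counts in shSCR and 3.07%, 4.06% and 3.04% in shZdhhc17. Stefin A counts summed were 3.70%, 3.93% and 5.23% of calprotectin counts in shSCR and 6.90%, 5.32% and 3.93% in shZdhhc17, where the groups overlapped. The ratio between the 2 families thus overlapped between groups, while S100a8 over S100a9 and the 2 ratios over Stfa2l1 did not. Stfa3 over Stfa2 overlapped too, with 4 against 10 counts in shSCR replicate 1 and 64 against 183 in shZdhhc17 replicate 1. No share over other pairs of genes was computed, so nothing is read from these separations.

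**Figure D3:**
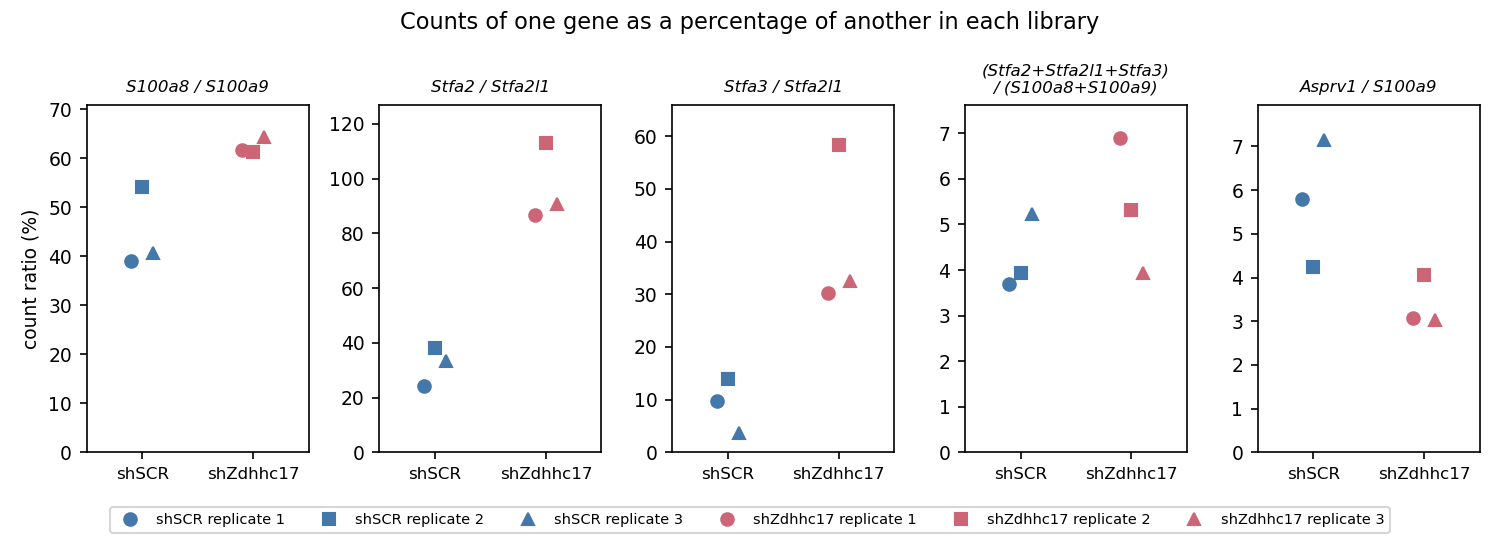
Ratios of counts within each library, as percent, for S100a8 over S100a9, Stfa2 over Stfa2l1, Stfa3 over Stfa2l1, stefin A over calprotectin, and Asprv1 over S100a9. The groups are apart for 4 of the 5 ratios, in genes that were chosen on this contrast. For Asprv1 over S100a9 they nearly touch, at 4.24% in shSCR replicate 2 and 4.06% in shZdhhc17 replicate 2. For stefin A over calprotectin, shZdhhc17 replicate 3, at 3.93%, lies among the shSCR libraries.

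Related genes of the stefin and cystatin families fell into those of the stefin A cluster and the rest. Of the listed relatives, 9 had a row and 7 were tested, with 5 positive and 2 negative log2 fold changes, a median of 0.78 and 3 higher without overlap. As a fold this median was 1.72, with 1.17 when shZdhhc17 replicate 3 was left out and 2.53 when shSCR replicate 2 was. None of the 7 passed the adjusted threshold in edgeR (smallest adjusted p = 0.307), 3 had an unadjusted p under 0.05, and DESeq2 called 2, Cstdc5 and Cstdc4. Cst3 (cystatin C, a secreted inhibitor) stood at 312.0 ± 20.9 and 290.9 ± 16.4 CPM, and Cstb (stefin B, expressed by most cells) at 107.7 ± 33.1 and 109.1 ± 28.4 CPM in shSCR and shZdhhc17 (SD, n = 3 each).

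Cstdc5, a stefin A-like gene of the same cluster, measured 0.545, 3.09 and 0.446 CPM in shSCR and 14.8, 5.08 and 13.2 CPM in shZdhhc17, a log2 fold change of 3.00 ± 0.75 (SE). Cstdc4 and Cstdc6, also of the cluster and named here after their values were seen, had log2 fold changes of 1.70 ± 0.39 and 2.70 ± 0.83 (SE). Cstdc4 measured 2.67, 2.77 and 1.73 CPM in shSCR and 11.6, 4.42 and 7.39 CPM in shZdhhc17. These copies share sequence too: 64.4% of 50-base windows in Cstdc4, 66.5% in Cstdc5 and 66.3% in Cstdc6 were found in that gene alone.

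Of the other S100 genes, 9 were tested, and of these, 3 had positive and 6 negative log2 fold changes, with a median of -0.02, 0 were higher and 2 lower without overlap, and 0 passed in edgeR (smallest adjusted p = 0.307, with 2 at an unadjusted p under 0.05). S100a6 stood at 615.6 ± 169.5 and 635.3 ± 307.2 CPM, S100a10 at 395.7 ± 91.5 and 392.9 ± 181.4 CPM, and S100a11 at 200.7 ± 41.3 and 190.9 ± 77.3 CPM in shSCR and shZdhhc17 (SD, n = 3 each). The 2 without overlap, chosen after their values were seen, were S100a14 with a log2 fold change of -2.25 ± 0.49 (SE) and S100a7a with -1.31 ± 0.35 (SE), both of which are expressed in epithelia. DESeq2 called 1 of the 9, S100a14 (adjusted p = 0.00179).

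The known partners of these proteins were also measured. Of 16 receptors and adaptors of calprotectin, 10 had positive and 6 negative log2 fold changes with a median of 0.19, 1 was higher and 2 were lower without overlap, and 0 passed in edgeR (smallest adjusted p = 0.377, 1 at an unadjusted p under 0.05) or DESeq2. Basigin (Bsg), which binds S100A9, stood at 738.9 ± 82.9 and 679.1 ± 2.33 CPM in shSCR and shZdhhc17 (SD, n = 3 each). Nptn, also described as a receptor of S100A8, had a log2 fold change of -0.08 ± 0.16 (SE), and Alcam, a cell adhesion receptor, 0.26 ± 0.15 (SE).

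Of 10 cysteine cathepsins, the proteases that stefins inhibit, 5 had positive and 5 negative log2 fold changes with a median of -0.03, and 0 passed in edgeR (smallest adjusted p = 0.502, 0 at an unadjusted p under 0.05) or DESeq2. Ctsl stood at 928.6 ± 277.8 and 1069 ± 91.6 CPM, and Ctsb at 906.9 ± 7.88 and 922.0 ± 122.6 CPM (SD, n = 3 each). Ctsz had a log2 fold change of -0.09 ± 0.18 (SE). Of 10 granulocyte transcription factors, 6 were positive and 4 negative with a median of 0.06, and 0 passed in edgeR (smallest adjusted p = 0.436, 1 at an unadjusted p under 0.05) or DESeq2. Stat3 had a log2 fold change of 0.12 ± 0.18, Cebpa of 0.55 ± 0.36 and Cebpb of -0.18 ± 0.21 (SE).

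Neutrophil markers were mostly higher in shZdhhc17 too, to different extents. Of 22 neutrophil markers tested, 20 had positive log2 fold changes, 10 were higher and 0 lower without overlap, and the median was 0.63. None passed in edgeR (smallest adjusted p = 0.307, 9 at an unadjusted p under 0.05), and DESeq2 called 2, Cd177 (adjusted p = 0.00112) and Mmp8 (adjusted p = 0.0187). The summed level of the list ran from 914.7 to 1572 CPM in shSCR and from 2204 to 2484 CPM in shZdhhc17. Lcn2, the most abundant and also made by hepatocytes and epithelia, stood at 664.5 ± 299.6 and 1374 ± 79.6 CPM (SD, n = 3 each).

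Wfdc21 had a log2 fold change of 0.63 ± 0.30 (SE), and Padi4, the histone-citrullinating enzyme of neutrophils, one of -0.18 ± 0.17 (SE). Ly6g, the surface marker that defines mouse neutrophils, was sparse, at 0.164, 0.994 and 0.391 CPM in shSCR and 1.45, 1.37 and 3.17 CPM in shZdhhc17. The neutrophil receptor Csf3r stood at 46.6 ± 14.3 and 46.3 ± 7.15 CPM, and the gelatinase Mmp9 at 107.8 ± 25 and 110.4 ± 28.2 CPM (SD, n = 3 each). These 3 were named after their values were seen. Calprotectin counts were 5.15%, 12.6% and 4.32% of the counts of the marker list in shSCR and 18.4%, 11.6% and 20.8% in shZdhhc17. The groups overlapped in replicate 2 of each, and Lcn2 weighs most in this list, so its counts do not measure neutrophils alone. Relative to Ly6g, calprotectin counts were 49500%, 19140% and 10110% in shSCR and 28870%, 18650% and 16350% in shZdhhc17. These groups overlapped too, and Ly6g had only 3, 19 and 7 counts in shSCR. The part of neutrophil content in the levels of the 6 genes was not tested.

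The 4 primary granule genes, which are transcribed in granulocyte precursors, were all higher without overlap, with a median log2 fold change of 3.56, which was 2.55 without shZdhhc17 replicate 3 and 5.86 without shSCR replicate 2. None of them passed in edgeR (smallest adjusted p = 0.307, 4 at an unadjusted p under 0.05), and DESeq2 called 1, Prtn3 (adjusted p = 0.0305). Their summed level was 13.9 to 55.0 CPM in shSCR and 81.0 to 346.1 CPM in shZdhhc17. Mpo (myeloperoxidase) measured 1.25, 16.8 and 0.558 CPM in shSCR and 49.1, 25.7 and 151.3 CPM in shZdhhc17, Prtn3 had a log2 fold change of 1.71 ± 0.51 (SE) and Elane one of 3.52 ± 1.00 (SE). As for calprotectin, shSCR replicate 2 was the highest control and shZdhhc17 replicate 3 the highest library.

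Other cell types that the nodules could hold gave these values beside the 6 genes. Monocytes can also express S100a8 and S100a9. Of 12 monocyte and macrophage markers, 6 were positive and 6 negative with a median of -0.01, and their summed level was 1054 to 1414 CPM in shSCR and 1114 to 1435 CPM in shZdhhc17. Basophil and mast cell markers summed to 14.99 to 21.9 CPM in shSCR and 13.4 to 22.2 CPM in shZdhhc17, with 3 of 4 tested positive and 2 higher without overlap. Keratinocyte markers, listed because Asprv1 and stefin A are also epidermal genes, summed to 29.2 to 56.1 and 17.1 to 37.4 CPM. All 4 tested were negative (median -0.47), Krt14 accounted for most of the sum, and 4 others were too low to test. Of these, named after their values were seen, the cornified envelope genes Ivl (0, 2 and 0 counts in shSCR, 7, 3 and 9 in shZdhhc17) and Lor (1, 4 and 7 against 7, 4 and 10 counts) had higher means in shZdhhc17, while Krt5 and Sprr1b had lower ones. Hepatocyte markers had a median of 0.30, with 9 of 10 positive and 2 higher without overlap, but a median of -0.01 without shSCR replicate 3. Carcinoma epithelial markers had a median of -0.43, with 7 of 8 negative. None of the genes of these 5 lists passed in edgeR (smallest adjusted p = 0.307, with 2 basophil and 2 carcinoma genes at an unadjusted p under 0.05) or DESeq2, and their part in the levels of the 6 genes was not tested.

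**Figure D4:**
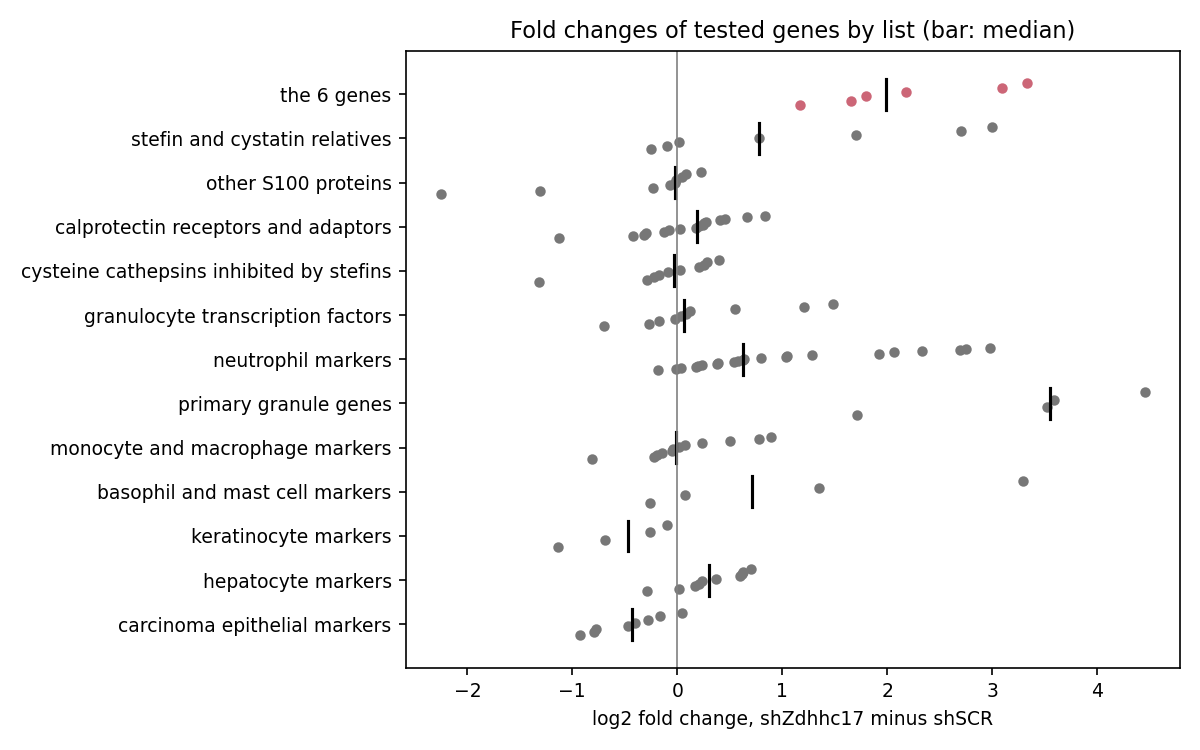
Log2 fold change (shZdhhc17 minus shSCR) of each tested gene of the fixed lists, by list, with the 6 calprotectin, stefin A and Asprv1 genes at the top and a bar at each median. The 6 genes have a median of 1.99, primary granule genes one of 3.56, neutrophil markers 0.63, and the medians of other S100 genes, cathepsins and macrophage markers lie near 0, with single genes of these lists on either side.

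Across the 6 libraries, the genes other than the 6 described whose log2(CPM + 1) followed summed S100a8 and S100a9 most closely were Ablim3 (Pearson r = 0.997), Ifitm6 (0.993), Mmp8 (0.989), Pf4 (0.988), Wdr46 (0.986) and Tpst2 (0.984), of 11492 genes with a mean of at least 5 CPM. Mmp8 encodes the neutrophil collagenase, and Pf4 is a platelet chemokine. For deviations from the group means, which leave out the difference between groups, the closest were Srrd (0.997), Ablim3 (0.995), Baiap2l1 (0.991), Atat1 (0.985), Plekhh2 (0.984) and Zscan29 (0.981).

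For stefin A summed, the closest were Tmem154 (0.994), Rnf144a (0.992), Mmp8 (0.989), Cstdc5 (0.989), Tpst2 (0.987) and Sf3b4 (0.984), and by deviations Spry1 (0.996), Tmem154 (0.990), Ptprv (0.989), Slc35e3 (0.988), Rexo2 (0.984) and Appl2 (0.981). Mmp8 and Tpst2 stood on both lists over the 6 libraries. Asprv1, left out of these rankings with the other 5, followed summed calprotectin at 0.998 over the 6 libraries and 0.994 by deviations, above Stfa2 (0.936 and 0.816), Stfa2l1 (0.952 and 0.860) and Stfa3 (0.923 and 0.827). Among neutrophil markers, Cxcr2 followed calprotectin at 0.978 and 0.972, Csf3r at 0.484 and 0.814, and Mmp9 at -0.378 and -0.745. Over the 6 libraries, Camp, Ngp, Ltf and Cd177 stood at 0.970 to 0.979, while Hdc and G0s2 stood at 0.307 and 0.295. Of the tested markers, only Mmp9 and Padi4 (-0.586) were negative there. These markers were named after their values were seen. All these correlations are descriptions over 6 points that share libraries, with no test, and high values are frequent when so many genes are ranked.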

How the data were processed

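Poly-A RNA of 6 liver metastasis samples (3 shSCR, 3 shZdhhc17) was sequenced with a stranded kit, per the labels' protocols. The authors deposited whole-number counts per gene and, from their own DESeq2 comparison, log2 fold changes, named as the authors' where printed. Per the submitters' processing notes, STAR 2.6.1 and HTSeq were used on GRCm39, with DESeq2 1.34.0 and FastQC 0.11.8. Whether HTSeq counted by strand is not given in the sources used.

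Counts were fitted with edgeR 4.0.16 (R 4.3.3): filterByExpr, TMM factors, robust quasi-likelihood tests, two-sided, Benjamini-Hochberg adjustment over 15567 genes. The fit was checked on simulated counts. P-values measure only the spread between these samples. DESeq2 1.42.0 and limma 3.58.1 served alternatives, and leaving out each library in turn was another. Sequences were compared with Biopython 1.88 on GENCODE vM21 and RefSeq GRCm38.p6.

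The 7 genes and the 12 lists (130 of 146 entries had a row) were chosen with earlier results of these data known. Named from each list were the genes past the threshold or, with none, up to 3 with the highest mean CPM, and for likeness the 6 highest correlations. Protein sequences were not used here.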

Additional observations from a re-analysis of the deposited data

How the results depend on the processing

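All 96 log2 fold changes of the 6 genes under alternative settings or with 1 library left out were positive. Their median ran from 1.60 (without shSCR replicate 3) to 2.83 (without shSCR replicate 2) over the libraries left out, and from 1.81 to 2.26 over the other settings. With the stefin A rows summed before the fit, the log2 fold change was 2.32, against a median of 3.10 for the 3 rows. The count of genes past the edgeR threshold was 0, but 3 without the filter on low counts and 214 with DESeq2. It was 3 with the mean log2(CPM + 1) of the hepatocyte markers as a covariate. With a library left out it was 0 to 1, the 1 arising without shSCR replicate 3. The count of listed genes past the threshold was 0, but 6 with DESeq2, and 0 to 0 with a library left out. The causes were not tested. Scaling by library totals alone moved the median of all genes to -0.13 on the log2 scale. Medians of the other S100, cathepsin, transcription factor and macrophage lists lay near 0 and changed sign under some settings. The hepatocyte median changed sign without shSCR replicate 3.

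With the replicate number as a block, 0 genes were called and the median of the 6 genes was 2.26. Same-numbered libraries deviated together in number 2 alone (r = -0.06, 0.32 and -0.05 for numbers 1 to 3 over 15567 genes). Differently numbered libraries ran from -0.40 (shSCR replicate 2 with shZdhhc17 replicate 1) to 0.30 (shSCR replicate 3 with shZdhhc17 replicate 1). The numbers were thus not taken to pair samples. Depth limits Stfa3 most, with 1 to 13 counts in the controls.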

Other observations

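Within the shSCR group, the 3 libraries fell in 1 order for S100a8, S100a9, Stfa2, Stfa2l1, Stfa3 and Asprv1, with replicate 2 highest and replicate 3 lowest. Markers of secondary granules, chosen after their values were seen, showed replicate 2 apart as well. Ngp, a granule protein of maturing neutrophils, measured 2.18, 26.8 and 1.28 CPM in shSCR and 49.9, 36.4 and 118.9 CPM in shZdhhc17. Ltf (lactoferrin) measured 1.47, 15.9 and 0.837 CPM in shSCR and 28.5, 20.1 and 70.4 CPM in shZdhhc17. Camp (cathelicidin) measured 0.382, 4.39 and 0.167 CPM in shSCR and 12.3, 5.85 and 21.5 CPM in shZdhhc17.

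Basophil and mast cell markers differed in direction. Of them, 2 basophil proteases, chosen after their values were seen, were higher in shZdhhc17. Mcpt8 measured 0.273, 0.889 and 0.837 CPM in shSCR and 1.38, 1.19 and 2.57 CPM in shZdhhc17. Prss34 had 0, 8 and 1 counts in shSCR and 23, 21 and 34 counts in shZdhhc17. The high-affinity IgE receptor genes went the other way on few counts, Ms4a2 with 2, 14 and 30 counts in shSCR and 4, 4 and 8 in shZdhhc17, and Fcer1a with 1, 3 and 5 against 1, 1 and 2. Kit, which accounted for most of the sum, stood at 15.5 ± 2.91 and 12.9 ± 3.35 CPM (SD, n = 3 each).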
